A study of Mus musculus with 15 samples.

Results

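The chemokine genes Cxcl1, Ccl2, Cxcl12 and Cxcl14 were followed through 15 single cells of mouse inguinal white fat. They were taken by gene symbol as 4 of the 8446 gene rows measured, as a pair usually induced by inflammatory signals (Cxcl1, Ccl2) and a pair usually made without such a signal (Cxcl12, Cxcl14). The mice were adult, of strain C57BL/6 and genotype Prrx1-CreERT;Tomato, so that a Cre driven by Prrx1 and activated by tamoxifen switches on the Tomato reporter in mesenchymal cells, and all had received tamoxifen at 2 mg per 30 g once a day for 3 days. The depot was digested with collagenase for 1 h at 37 °C, and Tomato+ cells were sorted and picked singly. There is 1 group, with neither an untreated nor a Tomato-negative control, and the labels name no animal. The 15 cells therefore count as 1 sample, they are described one by one, without p-values.

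The scale is log2(FPKM + 1), where FPKM is a fragment count divided by transcript length and by the total of the library. They had been brought to a common distribution, so a value is close to a rank within its cell, the top of the scale is 13.69 in each cell, and 4369 rows of each cell reach 1 FPKM. Detection here means a value of at least 1 FPKM. Read depth is unknown. What remains as a sign of library breadth is how many rows share the lowest value of a cell, from 930 to 1974, and cells 11, 14 and 1 have the most. FPKM divides by transcript length although the library kit reads the 3' end, so a gene with a long transcript is understated. For the annotated transcript with the longest coding part, the length is 5627 nt for Cxcl12 and 1827 nt for Cxcl14. It is 953 nt for Cxcl1 and 813 nt for Ccl2, so on these lengths Cxcl12 is understated most. Which isoform the cells made, and which length the processing used, is not known.

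Chemokines are small secreted proteins that bind G protein-coupled receptors and direct the movement of leukocytes and progenitor cells. Cxcl1 draws neutrophils through Cxcr2, and Ccl2 draws monocytes through Ccr2. Both are transcribed within a short time of a signal to NF-kB, and their mRNAs are short-lived. Cxcl12 holds haematopoietic cells near stroma through Cxcr4, is also bound by the scavenger receptor Ackr3, and is made steadily by perivascular stromal cells. Cxcl14 is made by epithelia and fibroblasts, and its receptor is less settled. In fat, recruitment of monocytes by Ccl2 is known from obesity.

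The families are told apart by the first cysteines of the protein, and the stretch that encodes them is shown because it is the feature that names each gene. In CXC chemokines a single residue stands between these cysteines, and in CC chemokines they are adjacent. The stretches are from GENCODE M21 transcripts on GRCm38, 5′ to 3′, with the cysteine codons in capitals.
Cxcl1: aatgagctgcgcTGTcagTGCctgcagacc
Ccl2: gccccactcaccTGCTGCtactcattc
Cxcl12: ctgagctaccgaTGCcccTGCcggttcttc
Cxcl14: gacgggtccaagTGTaagTGTtcccggaag
Counted from 1 at the start codon, these cysteines are codons 33 and 35 of Cxcl1, 34 and 35 of Ccl2, 30 and 32 of Cxcl12 and 25 and 27 of Cxcl14.

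The genes lie on different chromosomes. Cxcl1 (ENSMUSG00000029380) spans chromosome 5 from 90891241 to 90893115 on the plus strand of GRCm38, and Ccl2 (ENSMUSG00000035385) spans chromosome 11 from 82035571 to 82037453, also on the plus strand. Cxcl12 (ENSMUSG00000061353) spans chromosome 6 from 117168535 to 117181367 on the plus strand, and Cxcl14 (ENSMUSG00000021508) spans chromosome 13 from 56288643 to 56296551 on the minus strand. All are protein-coding. No other annotated gene overlaps Cxcl1, Cxcl12 or Cxcl14, while Gm17268 overlaps Ccl2 on the opposite strand. No source used here states whether counting used strand, so reads of that pair may not have been told apart.

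The bases before the start of the gene are shown because inducible chemokine genes are known for NF-kB sites there. RefSeq promoters (GRCm38.p6) were matched for Cxcl1, Cxcl12 and Cxcl14, and each line gives the 100 bases before the start, 5′ to 3′ on the strand of the gene. Capitals mark matches, on either strand, to an NF-kB motif (GGGNN followed at once by TTTCC), to ATAAAA, which resembles a TATA box, or to a GC box (GGGCGG). The windows are chr5:90891145-90891244 (plus strand), chr6:117168435-117168534 (plus strand) and chr13:56296552-56296651 (minus strand).
Cxcl1: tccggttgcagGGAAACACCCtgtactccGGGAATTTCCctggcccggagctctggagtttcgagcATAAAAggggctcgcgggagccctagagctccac
Cxcl12: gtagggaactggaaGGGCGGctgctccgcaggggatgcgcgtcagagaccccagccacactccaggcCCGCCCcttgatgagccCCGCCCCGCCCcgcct
Cxcl14: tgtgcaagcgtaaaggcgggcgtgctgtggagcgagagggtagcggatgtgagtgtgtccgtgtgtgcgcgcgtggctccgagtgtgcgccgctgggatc
In the 250 bases before the start, Cxcl1 had 2 matches to the NF-kB motif, starting 89 and 71 bases before the start, and 1 to ATAAAA. The NF-kB motif was present in 1.41% of the 32851 promoter windows of that length and ATAAAA in 17.0%. Cxcl12 had 5 matches to the GC box, the last ones overlapping each other, against a share of 32.7% of windows with any match, and none to the NF-kB motif or ATAAAA. Cxcl14 had no match to any of these. Of the other motifs searched on both strands, TATAAA (12.4% of windows), the AP-1 motif TGANTCA (6.75%) and a C/EBP motif, TTGCNN followed at once by AA (9.56%), had no match in these promoters, and the hypoxia core ACGTG (16.6%) had 1 in Cxcl1. A match is a run of letters and not a shown binding site, and a missing match covers only this window.

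The mRNAs also differ in AU-rich pentamers, which mark short-lived cytokine mRNAs. In the annotated 3' untranslated region of the transcript with the longest coding part, Cxcl1 had 7 copies of ATTTA in 592 nt, or 11.8 per kb, above 99.09% of 20920 genes. Ccl2 had 1 in 275 nt (3.64 per kb, percentile 84.44) and Cxcl12 had 4 in 5188 nt (0.771 per kb, percentile 43.32). Cxcl14 had none in 1149 nt. The longer element TATTTAT occurred 6 times in Cxcl1, once in Cxcl12 and in neither of the others, and 25.6% of genes had at least 1.

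Both inducible genes were detected in all 15 cells (100%, exact 95% interval from 78.2%, counting error only), as were 12.1% of all rows. Cxcl1 had its lowest value in cell 3 (5.60), a median of 9.24 and its highest value in cell 15 (12.98). It stood above the 90th percentile of its cell in 12 of 15 cells, and cells 1 (84.9), 3 (79.7) and 6 (88.2) were the exceptions. It was the row ranked 3 of 8446 in cell 15, and it ranked 10 in cell 8 (12.09) and 13 in cell 13 (11.88). Cells 14 (10.98), 7 (10.58) and 12 (10.30) came next, and the remaining 9 cells lay between 5.60 and 9.43.

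Ccl2 was detected as widely but at lower and more uneven values. It ran from 2.60 in cell 11 through a median of 6.15 to 13.69 in cell 9, where it was the highest row of the cell. Cell 15 followed at 10.61, cell 13 at 8.96, cell 8 at 8.06 and cell 12 at 7.26, and these 5 cells were the ones above the 90th percentile. In the other 10 cells Ccl2 lay between 2.60 and 6.93. Its detection depends on the scale of the gene: with a second condition, at least 1% of the highest FPKM of the gene, 5 cells remained for Ccl2, 13 for Cxcl1, 12 for Cxcl12 and 9 for Cxcl14.

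Cxcl12 was within a narrow band in most cells, with 3 cells far below it. It was detected in 14 of 15 cells (93.3%, exact 95% interval 68.1% to 99.8%), as many cells or more as 17.7% of all rows reach. In 12 cells it lay between 6.66 (cell 5) and 9.94 (cell 8). Cells 4 (3.00) and 1 (2.58) were lower, and in cell 13 it stood at 0.56, below 1 FPKM. The median was 7.59, and 9 cells were above the 90th percentile.

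Cxcl14 was detected in 9 of 15 cells (60.0%, exact 95% interval 32.3% to 83.7%), and 46.8% of all rows were detected in 8 cells or more. Cells 6 (6.61), 3 (5.76), 2 (4.76) and 14 (4.67) had its highest values. Cells 5 (3.11), 9 (2.95), 10 (2.56), 4 (2.09) and 7 (1.22) had middle values. Cells 1, 8, 11, 12, 13 and 15 were all at or below 0.30, and no cell reached the 90th percentile. At 5 FPKM or more, 6 cells remained, whereas the other 3 genes kept 13 or more. Of all rows, 32.6% reached 5 FPKM in 8 or more cells.

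**Figure D1:**
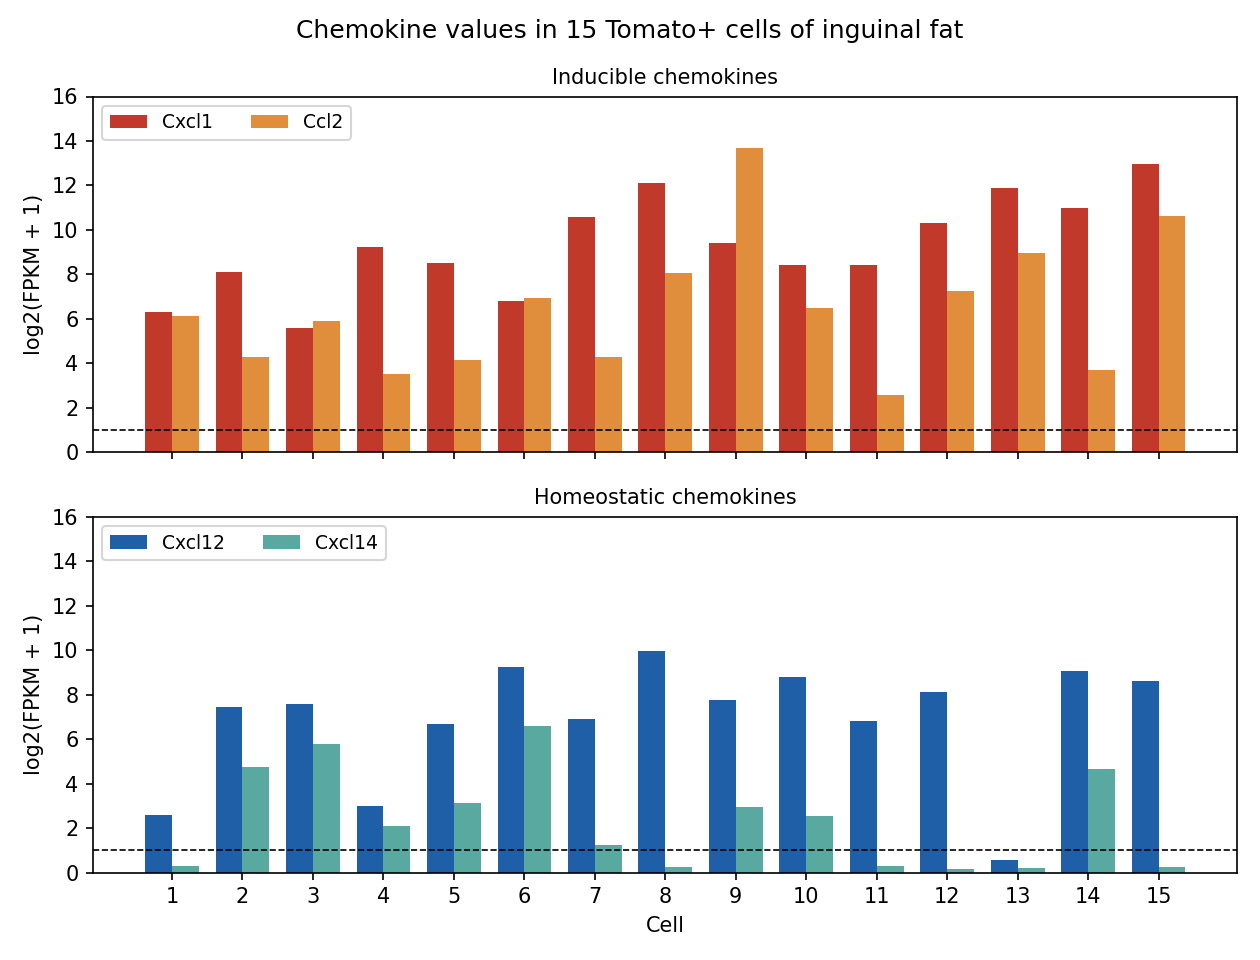
Bars give log2(FPKM + 1) of Cxcl1 and Ccl2 (upper panel) and of Cxcl12 and Cxcl14 (lower panel) in each of the 15 cells, and the dashed line marks 1 FPKM. Cxcl1 is at 5.60 or more in every cell, Ccl2 peaks at 13.69 in cell 9, Cxcl12 drops to 0.56 in cell 13, and Cxcl14 is at or below 0.30 in 6 cells.

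By median the order of levels was Cxcl1 (9.24), Cxcl12 (7.59), Ccl2 (6.15) and Cxcl14 (2.09), per length of transcript. Their ranges over cells overlapped: the interquartile range was 8.27 to 10.78 for Cxcl1, 6.74 to 8.71 for Cxcl12 and 4.23 to 7.66 for Ccl2, so neighbours in this order overlapped. For Cxcl14 it was 0.27 to 3.89, below that of Ccl2. Within a cell Cxcl1 exceeded Cxcl12 in 12 of 15 cells (median difference 1.93 on the log2 scale), with cells 3, 6 and 10 the exceptions. Ccl2 was below Cxcl12 in 10 of 15 cells (median difference −1.88), and above it in cells 1, 4, 9, 13 and 15. Cxcl12 exceeded Cxcl14 in all 15 cells, by 0.36 in cell 13 and by 9.68 in cell 8.

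Cxcl1, Ccl2 and Cxcl12 varied from cell to cell more than most genes of a like level. The SD over cells was 2.17 for Cxcl1, where the 100 rows nearest to it in mean had a median SD of 1.12 and 93 of them a smaller one. For Ccl2 it was 2.99 (median of the nearest 100 rows 1.89, 94 smaller) and for Cxcl12 it was 2.71 (1.75, 89 smaller). Cxcl14, with an SD of 2.24, stood in the middle of its 100 neighbours, of which 47 had a smaller one.

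Set pair against pair, the inducible mean of Cxcl1 and Ccl2 was above the homeostatic mean of Cxcl12 and Cxcl14 in 13 of 15 cells. The inducible mean ran from 5.52 (cell 11) to 11.79 (cell 15) with a median of 7.34, and the homeostatic mean from 0.38 (cell 13) to 7.92 (cell 6) with a median of 4.88. The difference within a cell had a median of 3.37 on the log2 scale. When the length of the annotated transcript with the longest coding part was multiplied back into FPKM, the median fell to 1.68. Then 9 of 15 cells had the inducible pair above, so the size of the difference depends on how length is treated. The order of cells for a single gene does not, since each gene was given the same length in every cell.

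At one end of this order stood cells in which the inducible pair was far higher. Cell 13 had a difference of 10.04, with Cxcl1 at 11.88 and Ccl2 at 8.96 against 0.56 for Cxcl12 and 0.20 for Cxcl14. In cell 15 the difference was 7.38, from Cxcl1 at 12.98 and Ccl2 at 10.61 over Cxcl12 at 8.60 and Cxcl14 at 0.23. Cell 9 had a difference of 6.22, and there Ccl2 (13.69) and not Cxcl1 (9.43) led, with Cxcl12 at 7.74 and Cxcl14 at 2.95. Cell 13 thus stood apart, with Cxcl12 below 1 FPKM, while cells 15 and 9 had Cxcl12 above its median.

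Cells 8, 1, 12, 4 and 7 followed with differences between 3.37 and 4.98. In cell 8 Cxcl1 (12.09), Ccl2 (8.06) and Cxcl12 (9.94) were all high and Cxcl14 was at 0.26. Cell 12 was alike, with 10.30 for Cxcl1, 7.26 for Ccl2, 8.14 for Cxcl12 and 0.16 for Cxcl14. In cell 1 the difference of 4.79 came from low homeostatic values (Cxcl12 2.58, Cxcl14 0.30), since Cxcl1 (6.31) and Ccl2 (6.15) were modest there. Cell 4 likewise had Cxcl12 at 3.00 and Cxcl14 at 2.09, with Cxcl1 at 9.24 and Ccl2 at 3.52. Cell 7 had Cxcl1 at 10.58 and Cxcl12 at 6.91 but Ccl2 at 4.30 and Cxcl14 at 1.22.

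At the other end the pairs were close to level. Cells 11 (1.97), 10 (1.77) and 5 (1.46) had small positive differences, with Cxcl1 between 8.43 and 8.51 and Cxcl12 between 6.66 and 8.81. Cells 14 (0.48) and 2 (0.10) were nearly balanced: cell 14 had Cxcl1 at 10.98, Cxcl12 at 9.04, Cxcl14 at 4.67 and Ccl2 at 3.70, and cell 2 had 8.11, 7.43, 4.76 and 4.29. In cells 3 (−0.92) and 6 (−1.04) the homeostatic pair was higher. Cell 6 had Cxcl12 at 9.22 and Cxcl14 at 6.61 over Ccl2 at 6.93 and Cxcl1 at 6.81, and cell 3 had Cxcl12 at 7.59 and Cxcl14 at 5.76 beside Ccl2 at 5.91 and Cxcl1 at 5.60.

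**Figure D2:**
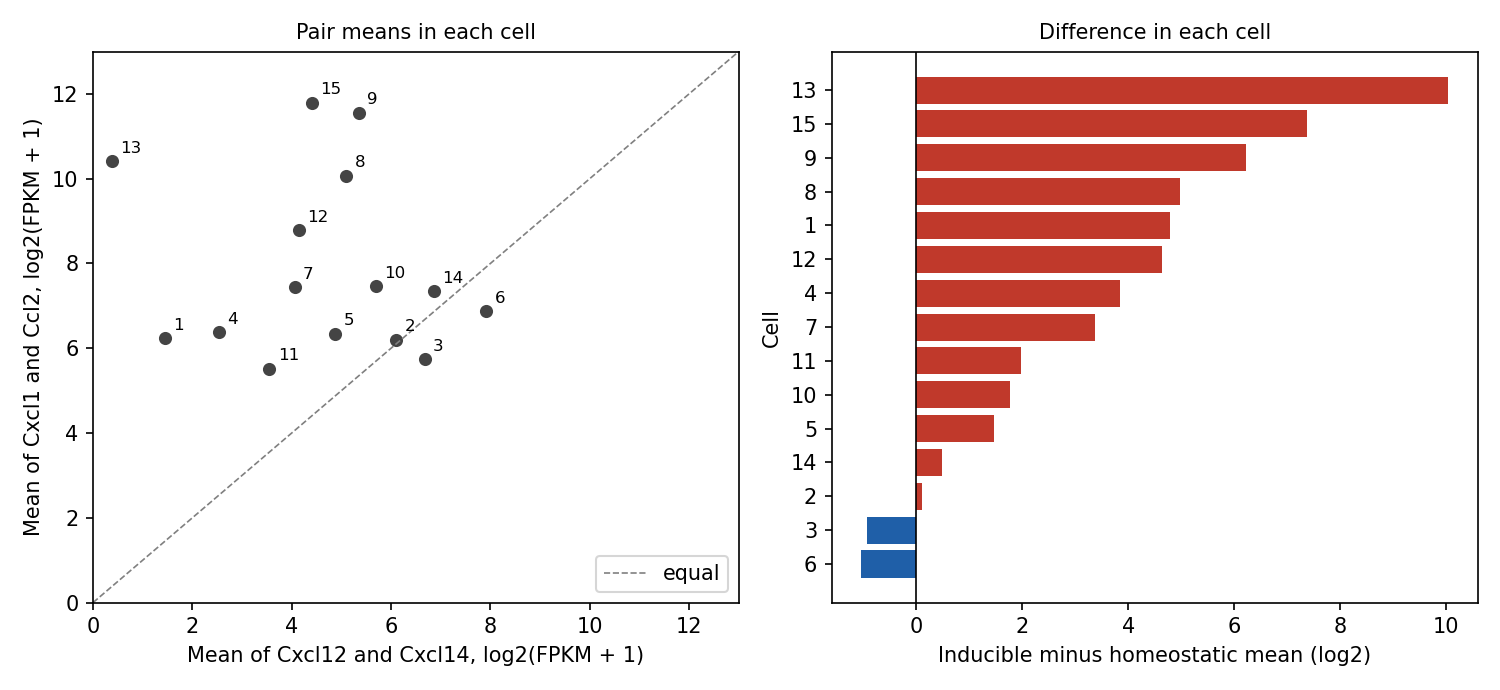
The left panel plots, for each numbered cell, the mean of Cxcl1 and Ccl2 against the mean of Cxcl12 and Cxcl14, both as log2(FPKM + 1), with a dashed line where they are equal; the right panel gives the difference in each cell, sorted. Cell 13 lies farthest above the line (10.04), and cells 3 (−0.92) and 6 (−1.04) lie below it.

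The pairs did not move as 2 blocks. Across the 15 cells, which share an unknown number of animals, 1 digestion protocol and a common distribution of values, the Spearman correlation of the inducible with the homeostatic mean was −0.086 (Pearson −0.155). Without cells 9 and 15, the farthest from the median of the inducible mean, it was −0.126, and without cells 5 and 13 it was 0.044. Within the inducible pair, Cxcl1 and Ccl2 had a Spearman correlation of 0.364 (Pearson 0.333), and 0.286 without cells 3 and 15. Within the homeostatic pair, Cxcl12 and Cxcl14 had 0.211 (Pearson 0.356), which was 0.016 without cells 1 and 13. These are weak relations over 15 points, and they are given as descriptions.

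The strongest of the 6 relations crossed the pairs. Cxcl14 was low where Cxcl1 was high, with a Spearman correlation of −0.618 (Pearson −0.557) that stayed between −0.723 and −0.538 when single cells were left out. Without cells 3 and 15 it was −0.462, and without cells 1, 11 and 14 it was −0.867. Cxcl14 was detected in 9 of 15 cells, so its ranks in the remaining cells rest on values near 0. All correlations with Cxcl14 share this limit. Among the 5839 genes ordered by likeness to Cxcl1, Cxcl14 stood at place 5769, so some genes were more opposed to Cxcl1. The cells with the 3 highest Cxcl1 values, cells 15, 8 and 13, all had Cxcl14 at or below 0.26, while cells 3 and 6, with 2 of the 3 lowest Cxcl1 values, had the highest Cxcl14. Cells 1 and 11 were low in Cxcl14 without being high in Cxcl1, and cell 14 was high in both. Ccl2 and Cxcl14 had −0.350 (Pearson −0.175). Cxcl12, by contrast, had positive values with both inducible genes, 0.196 with Cxcl1 (Pearson 0.074) and 0.318 with Ccl2 (Pearson 0.092). Without cells 5 and 13, chosen after seeing the data, these were 0.390 and 0.527, and without cells 1, 11 and 14 they were 0.014 and 0.448. The value with Cxcl1 was 0.148 without cells 3 and 15. The value with Ccl2 was 0.242 (Pearson −0.08) without cells 9 and 15. As for library breadth, Spearman correlations with the number of rows at the lowest value were 0.018 for Cxcl1, −0.200 for Ccl2, −0.250 for Cxcl12 and −0.121 for Cxcl14, and for Ccl2 the value was −0.500 without cells 9 and 15. The part of library capture in these relations was not tested.

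**Figure D3:**
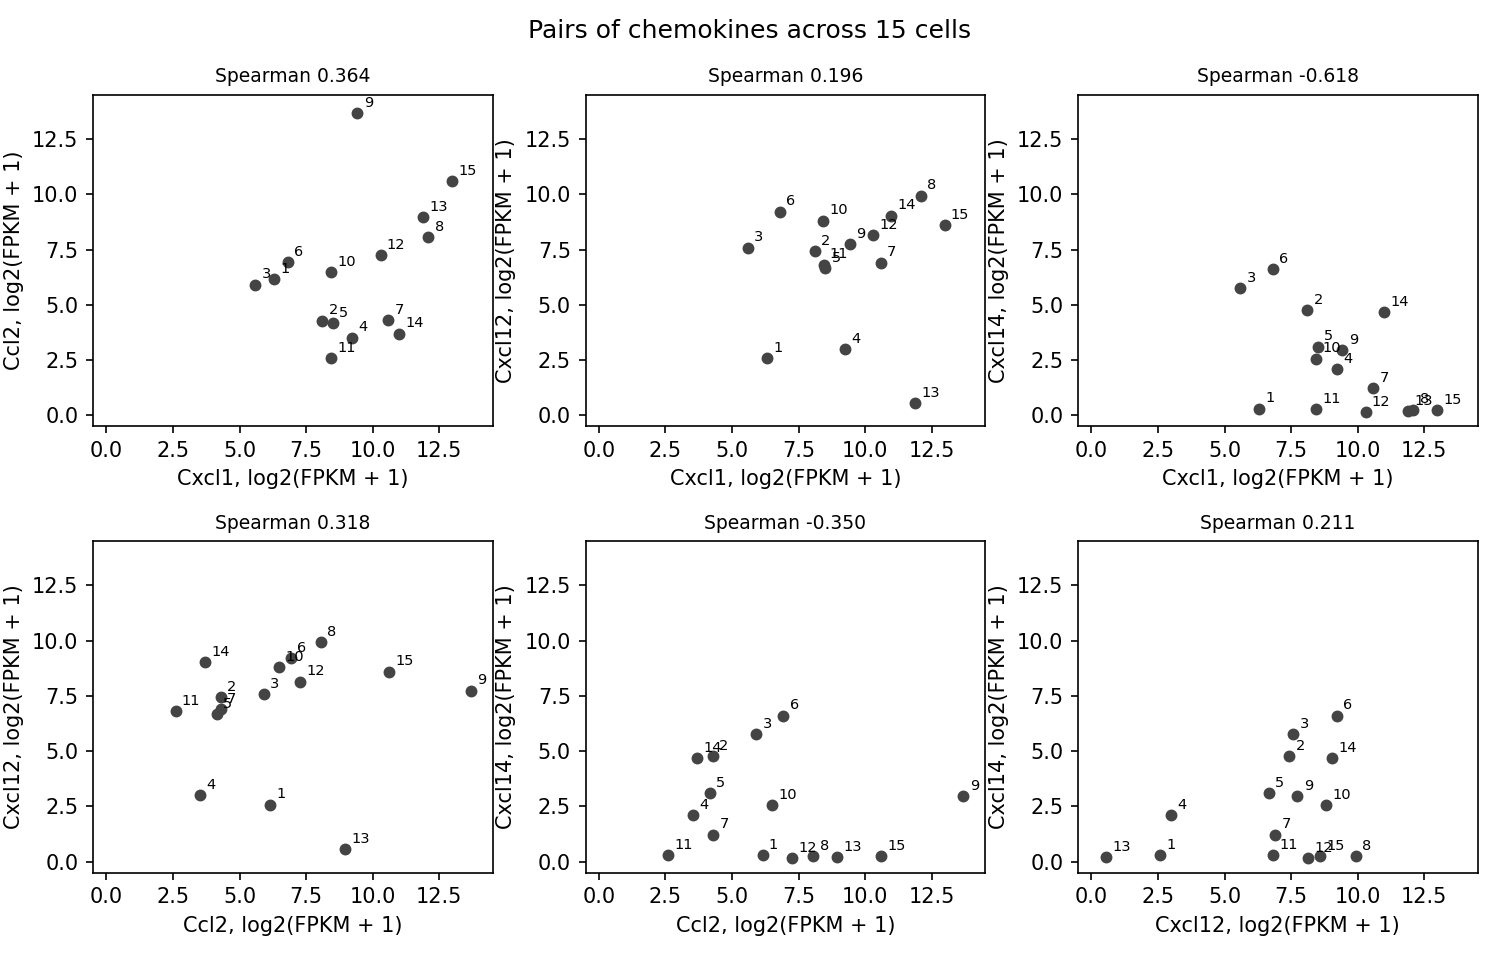
Each panel plots one chemokine against another as log2(FPKM + 1), with a numbered point for each of the 15 cells and the Spearman correlation above. Cxcl1 and Cxcl14 have the strongest relation (−0.618), and cell 13 stands apart in the panels with Cxcl12, where it is at 0.56.

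Other chemokine ligands were also expressed, and in several cells they exceeded the 4 genes. Of 34 further ligands listed, 11 had rows, 14 rows in all because Ccl19 and Ccl27a stand in several near-identical copies whose separate values are uncertain. Among the inducible ligands, Ccl7, a close relative of Ccl2 and its neighbour on chromosome 11, was detected in all 15 cells, from 2.29 in cell 13 through a median of 6.18 to 11.22 in cell 14. It did not follow Ccl2 (Spearman −0.032): cell 14 had the highest Ccl7 and Ccl2 at 3.70, and cell 9 had the highest Ccl2 and Ccl7 at 5.31. Ccl8, from the same cluster, reached 12.27 in cell 7 and 10.21 in cell 8, passed 1 FPKM in 13 cells, and had −0.404 with Ccl2. Cxcl2, a neighbour of Cxcl1 on chromosome 5 that shares its receptor, was far lower than Cxcl1, with a median of 2.03, detection in 10 cells and its highest value of 7.02 in cell 15, where Cxcl1 peaked too. Cxcl3 passed 1 FPKM in 1 cell (1.62 in cell 14). Cxcl10, an interferon-induced chemokine for T cells, passed 1 FPKM in 10 cells, with its highest values in cells 12 (8.42), 13 (8.02) and 15 (6.47).

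Ligands usually counted as homeostatic or mixed were as uneven. Cxcl13, the B cell chemokine, was detected in all 15 cells, with 13.69 in cell 3, 12.09 in cell 15 and 1.36 in cell 11. Ccl11, or eotaxin, was detected in 14 cells with a median of 7.95, and was highest in cells 15 (11.58) and 14 (10.90). Cxcl16, which is made as a membrane protein, was detected in 13 cells, up to 7.79 in cell 4. Ccl19 was above 4 in cells 2, 3, 6 and 12 in both of its rows and at most 3.59 elsewhere. Ccl27a was highest in cell 4 at 7.08 in one of its 3 rows, which overlaps Il11ra1, and Ccl25, which overlaps Elavl1, passed 1 FPKM in 4 cells and was highest in cells 4 (6.78) and 11 (5.77). Taking the 18 ligand rows together, Cxcl1 was the highest in 7 cells, Ccl8 and Cxcl13 in 2 each, and Ccl2, Ccl7, Ccl11 and Cxcl12 in 1 each.

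Measured against these ligands, the closest companions of the homeostatic genes were few. Spearman correlations of 0.5 or more were reached by Cxcl16 (0.557) and both Ccl19 rows (0.532 and 0.521) with Cxcl14, and 3.36% of the 5839 genes compared did so. Without cells 3 and 6 these were 0.489, 0.297 and 0.286, and the near-identical Ccl19 rows do not count as separate companions. Cxcl2 had 0.579 with Cxcl12 (0.495 without cells 1 and 13), where 3.37% of genes reached 0.5. No other ligand reached 0.5 with Cxcl1, where 3.07% of genes did, or with Ccl2, where 2.88% did. The nearest to Cxcl1 was Cxcl10 (0.479), which had −0.547 with Cxcl14. Cxcl1 itself stood at place 476 of 5839 among the genes ordered by likeness to Ccl2, and at place 5793 among those ordered by likeness to Cxcl14.

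**Figure D4:**
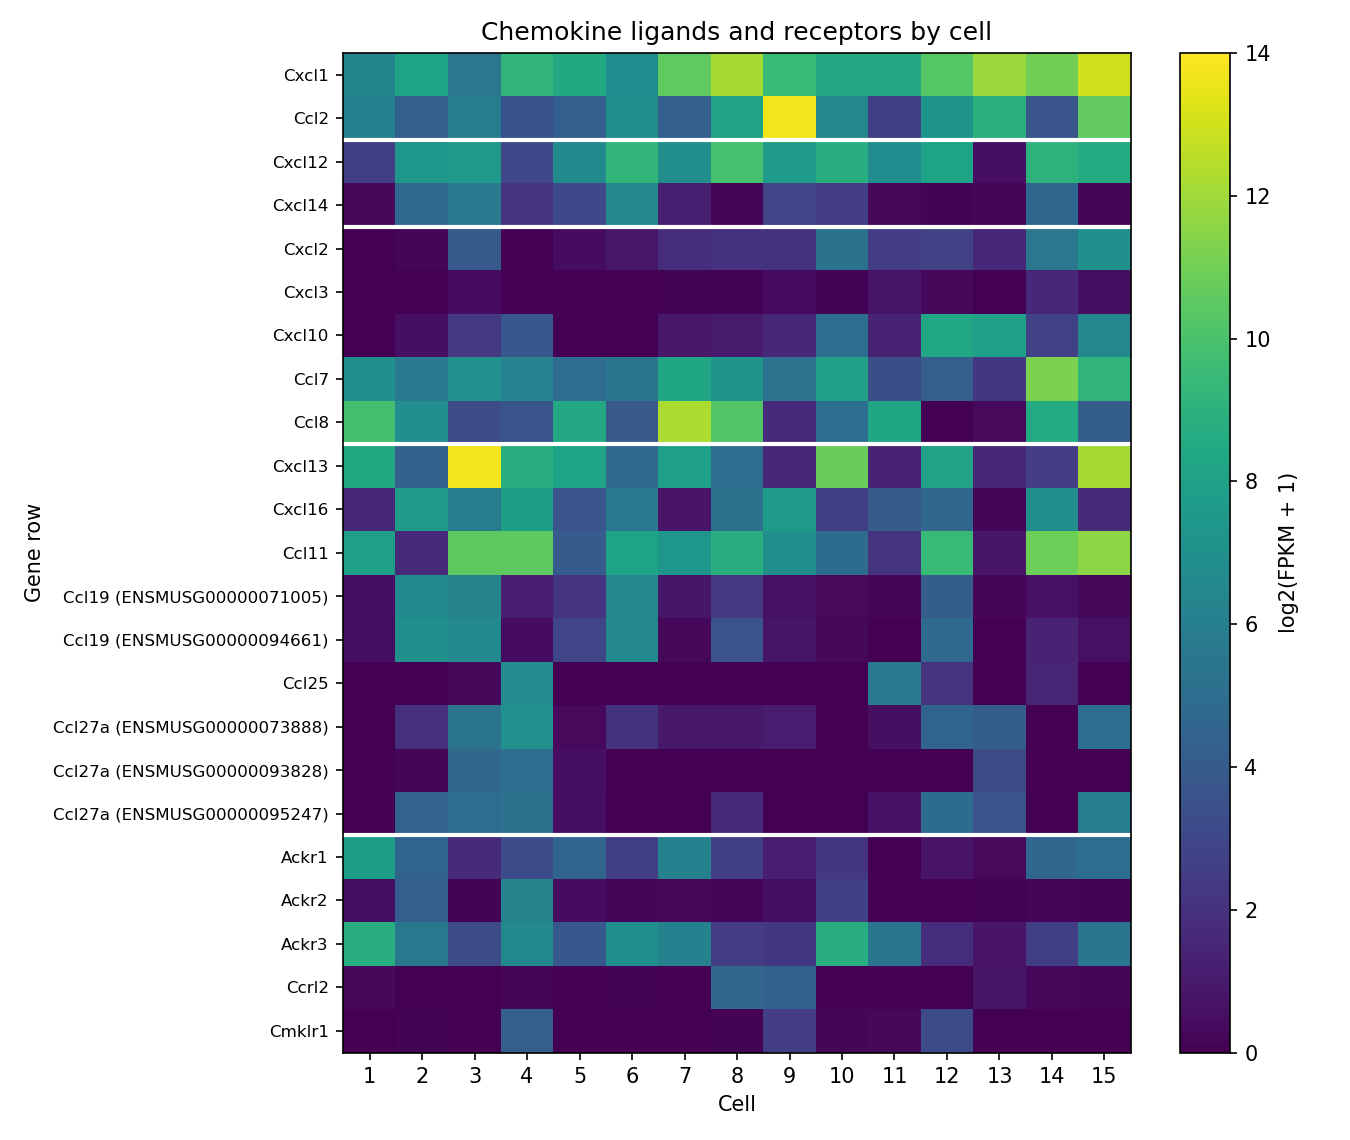
Colours give log2(FPKM + 1) of chemokine genes (rows) in the 15 cells (columns), with white lines between the inducible pair, the homeostatic pair, other inducible ligands, other homeostatic or mixed ligands, and receptors. Ccl2 in cell 9 and Cxcl13 in cell 3 stand at the top of the scale (13.69), and the classical receptors have no row in the picture.

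Of 24 chemokine receptors listed, 5 had rows, and all of them are atypical or related receptors. Cxcr2, Ccr2 and Cxcr4, the signalling receptors of Cxcl1, Ccl2 and Cxcl12, were not analysed here. Ackr3, which removes Cxcl12 from the surroundings, was detected in 14 of 15 cells (median 5.49) and was highest in cells 10 (8.85) and 1 (8.81). Its lowest value was in cell 13 (0.73), as for Cxcl12, but across the cells the 2 genes had a Spearman correlation of −0.057. With Cxcl1 it had −0.557 (Pearson −0.467). Ackr1, a scavenger of inflammatory chemokines, passed 1 FPKM in 12 cells, with its highest values in cells 1 (7.78) and 7 (6.17). Ackr2 was detected in 3 cells (6.24 in cell 4), Ccrl2 in 2 (4.62 in cell 8 and 4.35 in cell 9) and the chemerin receptor Cmklr1 in 3 (4.21 in cell 4).

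Genes of the NF-kB pathway, both its subunits and regulators and genes that it induces, were detected unevenly. Of 19 analysed NF-kB genes, 8 were detected in 8 or more cells, a share of 42.1% beside 46.8% of all rows, and the median of their means was 2.05 beside 1.89 for all rows. Nfkbia, the inhibitor that NF-kB induces, was detected in all 15 cells with a median of 7.97, and was highest in cells 8 (10.73) and 15 (10.40). Nfkbiz had a median of 4.47, up to 6.91 in cell 15, and Nfkbib one of 3.66. The mean of this list was highest in cells 9 (4.24) and 15 (3.58), the cells with the highest Ccl2, and between 1.70 and 2.81 in the other 13. Part of the list are genes that NF-kB induces, so its mean does not measure upstream factors alone. Among them, Icam1 stood at 5.87 in cell 9 and 7.31 in cell 15, while Birc3 was highest in cell 6 (7.08). Zfp36, which is also in the list for mRNA decay, stood at 10.60 and 10.44 in cells 9 and 15. The relation of the list mean to Ccl2 rested on cells 9 and 15: the Pearson correlation was 0.718 but the Spearman correlation was 0.221, and without both it was −0.198. The Spearman correlation of the list mean was 0.204 with Cxcl1, 0.396 with Cxcl12 and 0.461 with Cxcl14, so it was no lower for the homeostatic genes. Cell 9 also had the highest value of Bcl3 (7.10), a nuclear partner of NF-kB, which was at 0.00 in cell 15. Rel, a subunit, was highest in cell 15 (5.58) and next in cell 9 (3.59). Of the other subunits, Nfkb1 was at 6.35 in cell 9 and 4.68 in cell 15, and Nfkb2 at 2.35 and 0.00. Rela (0.82 and 0.83) and Relb (0.62 and 0.32) were below 1 FPKM in both cells.

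Of 17 analysed receptors for inflammatory signals, 9 were detected in 8 or more cells, a share of 52.9% beside 46.8% of all rows. Ifngr1 was detected in all 15 cells (median 7.25), Tnfrsf1a in 14 (4.63), and the interleukin receptors Il6st (4.90) and Il1r1 (4.48) in 12 each. Il1r1, the receptor for interleukin-1, stood at 0.17 in cell 13 and 0.24 in cell 9, which are among the cells highest in Ccl2, and at 6.83 in cell 15. The mean of this list had a Spearman correlation of 0.593 with Cxcl12, 0.429 with Ccl2, 0.093 with Cxcl14 and 0.032 with Cxcl1.

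Secreted products and enzymes known to be induced along with Cxcl1 and Ccl2 peaked in different cells, some of which were high in Ccl2. Of 9 analysed, 6 (66.7%) were detected in 8 or more cells, beside 46.8% of all rows. Il6 was highest in cells 9 (9.80), 15 (8.50) and 2 (7.64), and stood at 0.37 in cell 13. Tnfaip6, a hyaluronan-binding protein, was detected in all 15 cells (median 6.93). It was highest in cell 9 (11.96), at 7.13 in cell 15 and lowest in cell 13 (1.57). Has1, a hyaluronan synthase, was at 10.63 in cell 9, 7.93 in cell 7 and 0.54 in cell 13. Ptges, a prostaglandin synthase, was detected in 12 cells (median 4.49), with 6.95 in cell 4, 6.49 in cell 13 and 0.47 in cell 9. Csf1 was detected in 14 cells (median 3.92), with 7.64 in cell 6, 6.68 in cell 15 and 1.43 in cell 9. Ptgs2 was highest in cell 10 (4.67), Has2 in cell 7 (4.81) and Il33 in cell 8 (5.60). Ptx3 was highest in cells 12 and 15 (6.95 in each). Cell 13 therefore combined high Cxcl1 and Ccl2 with low Il6, Tnfaip6 and Has1 but high Ptges, while cells 9 and 15 had high Ccl2 with high Il6 and Has1 (7.35 in cell 15). The mean of this list had a Spearman correlation of 0.161 with Cxcl1, 0.496 with Ccl2, 0.461 with Cxcl12 and −0.007 with Cxcl14. Without cells 9 and 15 the value with Ccl2 was 0.231 (Pearson 0.067).

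Immediate early genes, which respond within a short time of a stimulus, were detected in nearly all cells. Of 18 analysed, 17 (94.4%) were detected in 8 or more cells, beside 46.8% of all rows. They included Fos (median 10.75), Dusp1 (8.23), Egr1 (7.95) and Ier2 (7.93). The mean of the list had a Spearman correlation of 0.546 with Cxcl1 and 0.434 without cells 3 and 15. With Ccl2 it had 0.439, and 0.137 without cells 9 and 15. With Cxcl12 it had 0.404, and 0.341 without cells 1 and 13, and with Cxcl14 it had −0.018. Cell 9 had the highest mean (8.11), cell 15 the next (7.62) and cell 11 the lowest (3.33), and cell 11 also had the lowest Ccl2 (2.60). Cell 11 was also the cell with the most rows at the lowest value (1974). Cell 14, the next in that number (1877), had a list mean of 7.10. The part of library capture was not tested. All cells had been digested at 37 °C, their state before digestion was not measured, and its part in the levels of Cxcl1 and Ccl2 was not tested.

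Of the proteins that control decay of AU-rich mRNA, 10 were analysed and 5 were detected in 8 or more cells, a share near the 46.8% of all rows. Zfp36, or tristetraprolin, was detected in all 15 cells (median 7.50) and was highest in cells 9 (10.60), 15 (10.44) and 14 (10.23). Zfp36l1 (5.93) and Zfp36l2 (3.92), its relatives, were detected in 14 cells each, and Elavl1, which stabilises such mRNA, in 13 (4.18). Cells 9 and 15 were thus high in Zfp36 as well as in Ccl2. The list mean had a Spearman correlation of 0.175 with Cxcl1, 0.357 with Ccl2, 0.489 with Cxcl12 and 0.050 with Cxcl14.

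On the Cxcl12 side, 15 genes of its production, retention and cleavage were analysed. Of these, 12 (80.0%) were detected in 8 or more cells, beside 46.8% of all rows. The proteases Mmp2 (up to 10.38 in cell 2), Ctsk (up to 11.25 in cell 8) and Mmp14 (median 6.57), which can cut Cxcl12, and the heparan sulfate proteoglycan Sdc2 (median 6.86) were the highest. Mmp2 and Sdc2 were lowest in cell 13 (0.73 and 0.40), where Cxcl12 was lowest too. Dpp4, a peptidase that inactivates Cxcl12, was highest in cells 1 (7.93) and 7 (6.87), and Cxcl12 was at 2.58 and 6.91 there. These are mRNA values, and cleavage of the protein was not measured. Dpp4 is also a marker of a progenitor type of fat stroma. The mean of 9 markers of that type, Dpp4 among them, was highest in the same cells (7.37 and 6.54), with at most 4.28 elsewhere. The part of cell type in these values was not tested. Ebf1, a factor of stromal Cxcl12 expression in marrow, was detected in all 15 cells, from 3.21 in cell 2 to 9.31 in cell 5. The mean of this list had a Spearman correlation of −0.225 with Cxcl12, 0.171 with Cxcl14, −0.429 with Cxcl1 and −0.493 with Ccl2.

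The label of fat stromal cells was set against markers. All 10 analysed stromal markers were detected in 8 or more cells, beside 46.8% of all rows. Among them were Col3a1 (median 11.49), Col1a2 (10.64), Vim (10.41) and Lum (10.24), and each cell detected 8 or more of the 10. Their mean was lowest in cells 13 (5.24) and 12 (5.86). In cell 13 Pdgfra (0.20) and Mmp2 (0.73) were below 1 FPKM and Col1a1 was at 2.00, each the lowest of all cells. Pdgfrb (7.66) and Vim (12.02) had their highest values there, so the stromal label was least borne out in cell 13. Of the mural markers of pericytes and smooth muscle, 5 were analysed. Their summed log2 value was 43.6 in cell 5, 29.1 in cell 13 and between 1.93 and 11.87 elsewhere. Cell 13, with the lowest Cxcl12, had Higd1b at 10.68, Kcnj8 at 9.43 and Rgs5 at 6.90. Abcc9 was at 1.68 there and Acta2 at 0.45, below 1 FPKM. Cell 5, with Cxcl12 at 6.66, was high in all 5: Higd1b 10.98, Acta2 10.23, Rgs5 10.18, Kcnj8 6.53 and Abcc9 5.68. Without cells 5 and 13 the median difference between the pairs was again 3.37, with 11 of 13 cells above 0. Of immune markers Csf1r was the one analysed. It was detected in 4 cells, with 6.39 in cell 2, 3.81 in cell 1 and 3.35 in cell 7, where Cxcl1 was at 10.58. Csf1r was at 0.00 in cells 8, 9, 14 and 15, which include the highest cells in Cxcl1 (15) and Ccl2 (9). It was at 1.78 in cell 13, which was also high in both. A single marker does not settle whether any of these cells is an immune cell. Of endothelial markers Tek was detected in 1 cell and Esam in 7, highest in cell 13 (10.90). No mesothelial marker was analysed here, so that cell type could not be checked.

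Across all genes, those whose pattern was most like each chemokine came from varied groups, and with 5839 genes and 15 cells high values are found for any pattern. Most like Cxcl1 were Mtfr1l (Spearman 0.832), Ndufc2 (0.825), Tfam (0.814), Kctd20 (0.807) and Riok3 (0.779), and least like it Slc25a28 (−0.846), Tmem164 (−0.810) and Tram1 (−0.804). Most like Ccl2 were Bach1 (0.811), Nsun6 (0.804), Rbm18 (0.804), Adamts1 (0.789) and Pds5a (0.782), and least like it Rabac1 (−0.801), Pycr1 (−0.800) and Dusp23 (−0.795). Adamts1, a secreted metalloprotease, was detected in all 15 cells, from 1.38 to 8.51 in cell 15. Ndufc2, Tram1 and Rabac1 were also detected in all 15. Others were below 1 FPKM in most cells, so their ranks rest partly on values near 0. Among these, Kctd20 and Tmem164 were detected in 5 cells each, Bach1 in 6 and Tfam in 7.

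Most like Cxcl12 were Cflar (0.850), Fcho2 (0.835), Kdsr (0.807), Trim47 (0.799) and Colec12 (0.793), and least like it Pfn1 (−0.846), Rps4l (−0.839) and Dap (−0.832). Cflar, an inhibitor of caspase-8, was detected in 14 cells and, like Cxcl12, was highest in cell 8 (7.93). Most like Cxcl14 were Snx15 (0.880), Cmc4 (0.814), Pcdh19 (0.775), Sptssa (0.761) and Cndp2 (0.736), and least like it Cwc25 (−0.757), Snrpa (−0.746) and Atpaf2 (−0.746). Pcdh19, a protocadherin, was detected in 9 cells and, like Cxcl14, was highest in cell 6 (10.14). Trim47 was detected in 5 cells, Atpaf2 in 6 and Snx15 in 7, and the others named here in 8 or more. None of the 4 chemokines was among the 5 genes most like another.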

How the data were processed

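Each of the 15 cells gave 1 RNA library (SMART-Seq v4 3' DE, then Nextera XT), per the labels' protocols. TopHat2, Cufflinks and GRCm38 are named in the submitters' processing notes, without versions, and no source used here gives the settings. The deposited values are on a log2 scale, read as log2(FPKM + 1). The base, the quantile normalization and the filter to 8446 rows are inferred from the values: as log2 they sum to a mean of 592948 FPKM per cell, and sorted columns differ by at most 0.0354 above a value of 0.2. Another 18 columns, all empty and unnamed, were not used. Columns were tied to cells by the number in the sample title. Of 8441 gene identifiers, 8431 matched the gene name table, and symbols are the deposited ones.

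The genes and lists were chosen with earlier results of these data known. Detection was set at 1 FPKM, with exact (Clopper-Pearson) 95% intervals for shares of cells. Spearman and Pearson correlations run over 15 cells, and likeness over genes detected in at least 5 cells. This step was tested on simulated data. The rule for named genes took the 4 chemokines, other chemokine ligands and receptors, and up to 4 genes of highest median per list. It also took genes whose value in a cell is the reason for naming that cell, and the 5 genes most and 3 least like each chemokine. Bcl3, Rel, Il6, Dpp4, Ebf1, Abcc9, Pdgfra, Pdgfrb and Col1a1 were picked after values were seen. So were Nfkb1, Nfkb2, Rela, Relb, Icam1, Birc3, Ptgs2, Has2, Il33 and Ptx3. Promoter motifs were chosen after the sequences had been seen, and the shares given for them are descriptions. Alternatives were stricter detection, another pseudocount, percentile ranks, the higher gene of each pair, transcript length and cells left out. Software was Python 3.11.15, numpy 2.4.6, pandas 2.3.3 and scipy 1.17.1.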

Additional observations from a re-analysis of the deposited data

How the results depend on the processing

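Of 65 alternative values, cells left out singly not counted, 1 turned its sign and 18 moved beyond the limit set for their kind. The limit was the SD over cells for the median difference and the exact interval for a share of cells. It was the range over cells left out singly for a correlation, and 1.5 times for a count. These limits are wide: with length multiplied back, neither the median of 1.68 nor the 9 of 15 cells counted as moved. With cells left out singly, the correlation of the pair means also turned its sign without cell 2 (0.029), cell 3 (0.029) or cell 13 (0.059). The median difference between the pairs (3.37) was 3.70 with a pseudocount of 0.1 FPKM, 2.15 with the higher gene of each pair, 1.68 with length multiplied back, 3.61 without cells 1, 11 and 14, and from 2.67 to 3.61 with single cells left out. As percentile ranks it was 15.9 points, with 11 of 15 cells above 0. With detection also at 1% of the highest FPKM, Ccl2 was detected in 5 cells. Over cells left out singly, Spearman correlations ranged from 0.244 to 0.477 for Cxcl1 and Ccl2, from 0.029 to 0.367 for Cxcl1 and Cxcl12, from −0.723 to −0.538 for Cxcl1 and Cxcl14, from 0.253 to 0.543 for Ccl2 and Cxcl12, from −0.459 to −0.253 for Ccl2 and Cxcl14, from 0.068 to 0.389 for Cxcl12 and Cxcl14, and from −0.248 to 0.059 for the pair means. Without cells 1, 11 and 14, they were 0.531 for Cxcl1 and Ccl2, 0.014 for Cxcl1 and Cxcl12, −0.867 for Cxcl1 and Cxcl14, and −0.392 for the pair means. Without the 2 cells farthest from the median of the first gene they were −0.462 for Cxcl1 and Cxcl14, 0.242 for Ccl2 and Cxcl12, and 0.016 for Cxcl12 and Cxcl14. As Pearson correlations, Ccl2 had 0.092 with Cxcl12 and −0.175 with Cxcl14. Without cells 5 and 13, chosen after seeing the data, as was the length setting, they were 0.390 for Cxcl1 and Cxcl12, −0.236 for Ccl2 and Cxcl14, and 0.044, a turn of sign, for the pair means; the cause was not tested. At 5 FPKM, 2 rather than 4 rows of the other inducible ligands and 5 rather than 8 NF-kB genes were detected in 8 or more cells. With Pearson correlations, 2 of the 5 genes most like Cxcl1, 2 for Ccl2, 1 for Cxcl12 and 3 for Cxcl14 were shared. No paired analysis was possible because there is 1 group. Depth is unknown, so a value near 0 is not shown to be absence.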
